A study of Mus musculus with 18 samples.

Results

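The mouse genes named Zfp followed by a number code for zinc finger proteins, and 174 of them were measured here among 11974 genes. They were chosen by name and by signal. A gene entered when a probe set annotated to it alone had a mean log2 signal above 5.95 over the 18 arrays, Zfp36 was left out, and each gene was represented by its probe set with the highest mean. Of 277 such genes with a single-gene probe set on the array, 174 passed. Zfp286 at 5.96, Zfp770 at 5.97 and Zfp267 at 6.00 lay just inside the threshold, and Zfp560 at 5.95, Zfp768 at 5.93 and Zfp516 at 5.93 just outside. The mean of 155 members was above the threshold in each of the 6 combinations of genotype and RNA preparation. The other 19 had at least 1 such mean at or below it, among them Zfp248 in control WASH. Of these 19, 15 passed the test of long against short tails in control mice, beside 63.0% of all tested probe sets. Members of this kind can enter through their signal in another preparation, so a difference between fractions is partly built in by the selection.

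Most Zfp proteins carry repeats of the C2H2 zinc finger, a small fold held by a zinc ion that reads a few bases of DNA or, in some members, RNA. Many also carry a KRAB domain, which recruits the corepressor Trim28 and, through it, histone methyltransferase, deacetylase and heterochromatin proteins to retroelements, imprinted regions and genes. The poly(A) tail at the 3′ end of an mRNA affects its translation and stability, and CPEB4 is an RNA-binding protein that acts on tail length through a cytoplasmic polyadenylation element in the 3′ UTR.

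The RNA came from cortex and striatum dissected together from mice at 6 weeks of age, 3 controls (CTRL) and 3 carrying the TgCPEB4∆4 transgene, which codes for CPEB4 lacking exon 4. The sources used here do not give the transgene's promoter, the number of lines or the strain. Each mouse gave 3 preparations. INPUT was total RNA, WASH was RNA that left a poly(U) column at 25% formamide, enriched for short tails, and ELUTED was RNA released at 90% formamide, enriched for long tails. The tail ratio used below is log2 ELUTED minus log2 WASH within a mouse, so 0 means an equal share of both fractions and each unit is a factor of 2. Equal amounts of amplified cDNA were labelled, so the ratio is relative to the other transcripts of each fraction and is not a tail length. In these bulk samples fewer cells of a type and less RNA per cell cannot be told apart.

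The 18 arrays were all different, and 1 stood apart. The ELUTED array of control mouse 1 correlated at 0.796 with the mean of all arrays, whereas the others correlated at 0.91 or more. The highest nonspecific control probe set, taken as the background, read 7.30 on that array and 5.53 to 6.29 on the other ELUTED arrays, 5.43 to 6.03 on WASH arrays and 7.07 to 7.52 on INPUT arrays. Accordingly 80 to 109 of the 174 Zfp genes were above background on an INPUT array, 168 to 174 on a WASH array and 102 to 174 on an ELUTED array, and 61 were above it on all 18. The transgene itself was not visible as a higher Cpeb4 signal. The brighter Cpeb4 probe set read 8.30 to 8.44 in control INPUT and 7.99 to 8.58 in transgenic INPUT, and the sources used here do not say whether the transgene covers it. Neuronal markers were high in all INPUT arrays, with 6 of 6 tested and a summed log2 level of 14.2 to 14.3 in controls and 14.1 to 14.3 in transgenic mice. The sum over 7 of 9 striatal markers was 12.87 to 12.93 in control INPUT and 12.64 to 12.74 in transgenic INPUT, lower without overlap. In WASH it was 12.82 to 12.91 and 12.63 to 12.71, also without overlap. Markers of several other cell types were higher in some or all transgenic INPUT arrays. The sum over 5 of 6 meningeal markers was 11.01 to 11.11 in controls and 11.27 to 11.98 in transgenic mice, and that over 5 of 5 endothelial and mural markers 11.40 to 11.62 and 11.63 to 11.96, both without overlap. The sums over 6 of 6 astrocyte markers were 13.61 to 13.62 and 13.62 to 14.35, those over 6 of 6 microglial markers 11.24 to 11.35 and 11.29 to 12.22, and those over 6 of 8 inflammation and interferon genes 9.56 to 9.69 and 9.64 to 13.3. The part of these marker differences, the striatal one included, in the genotype comparisons below was not tested.

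In control mice the Zfp mRNAs were spread over both tail fractions. The tail ratio of 30 members was above 0 and that of 49 below 0 at an adjusted p under 0.05, and 95 did not pass. The test was limma on 3 control mice, with the spread estimated from all 6 mice and Benjamini-Hochberg adjustment over 27022 probe sets. These are 17.2% and 28.2% of the members, beside 20.5% and 39.9% of all tested genes. The median member lay at -0.03 and the median gene at -0.18, with 98 of 174 members above the latter. Mean tail ratios ran from -1.71 to 1.45. Only 12 members, or 6.9%, had a mean below -1, compared with 18.6% of all genes, and 4 members, or 2.3%, had a mean above 1, compared with 1.58%. The zero point depends on the scaling of the arrays. When each array was centred on its median, the median of all genes moved by 0.19, 55 members passed above 0 and 31 below, so that 64.0% rather than 38.0% of the members that passed were above 0. Of all genes 30.9% passed above 0 and 31.6% below with centred arrays, so that 49.5% rather than 34.0% of the genes that passed were above 0. A second quantile normalization gave 46 members above 0 and 41 below, beside 24.7% and 29.9% of all genes. Of the members that passed, Zfp523 changed sign under that normalization, from -0.34 to 0.03, and 0 did with centred arrays.

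**Figure D1:**
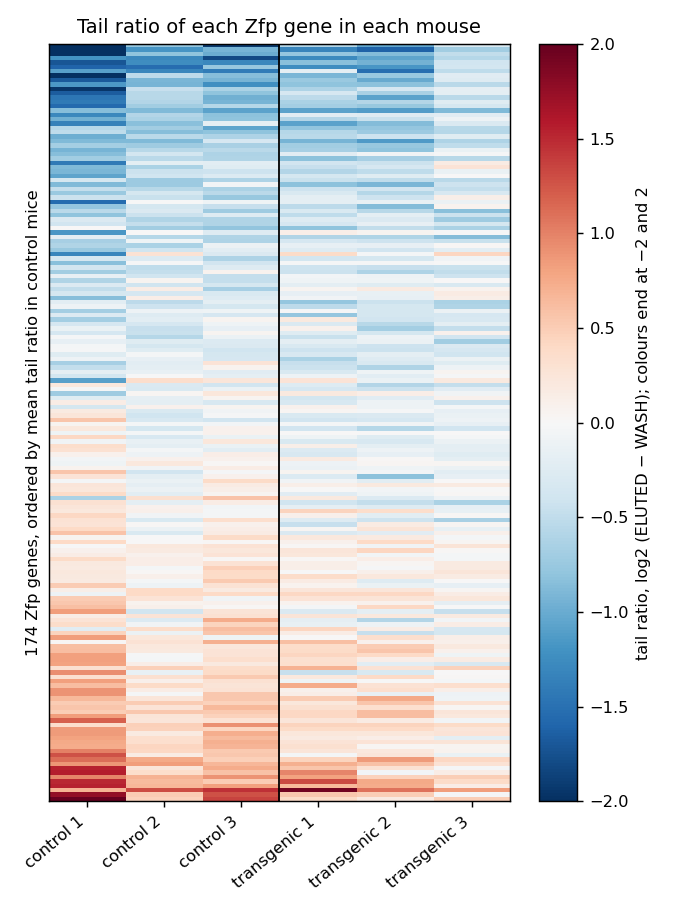
Tail ratio (log2 ELUTED minus WASH, colour, ending at -2 and 2) of the 174 Zfp genes (rows, ordered by their mean in the 3 control mice) in each of the 6 mice (columns). Blue rows at the top and red rows at the bottom continue from the control into the transgenic columns in paler colours, and control mouse 1 has the strongest colours.

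The member medians of the individual control mice were -0.03, -0.14 and -0.02, against -0.23, -0.16 and -0.13 for all genes. The distance between the quartiles was smaller for the members than for all genes in each control mouse. In control mouse 1 the quartiles of the members were -0.68 and 0.42 and those of all genes -1.12 and 0.46. In the transgenic mice the member medians were -0.14, -0.17 and -0.11, and the all-gene medians -0.16, -0.22 and -0.11. In every mouse the member median was thus at or above that of all genes, by the most in control mouse 1.

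**Figure D2:**
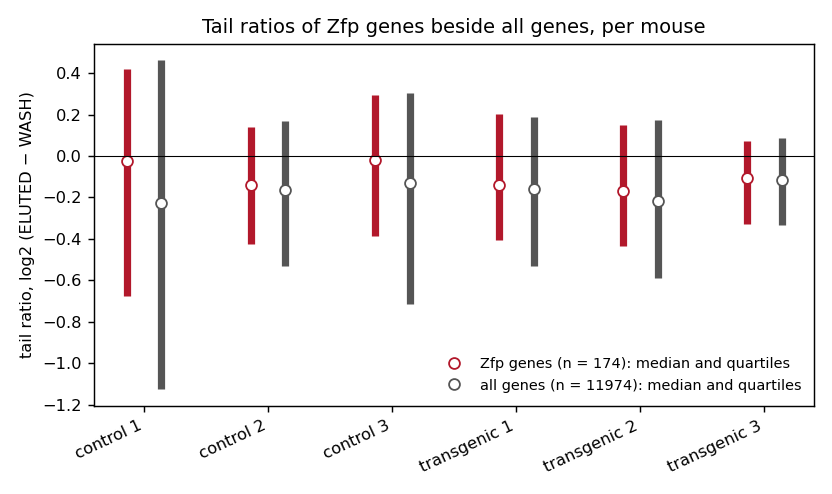
Median (open circle) and quartiles (bar) of the tail ratio (log2) in each mouse for the 174 Zfp genes (red) and all 11974 tested genes (grey). The bars of control mouse 1 are the longest, and the red bars end higher at their lower end than the grey ones in all 6 mice.

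In control mice the members most enriched with long tails were Zfp536, Zfp865, Zfp248 and Zfp618. Zfp536, which represses neuronal differentiation, read 6.00, 6.22 and 6.17 (log2 signal) in the 3 control WASH arrays and 8.55, 6.67 and 7.51 in the ELUTED arrays. Its ELUTED signal was higher in each mouse but by very different amounts, with a mean tail ratio of 1.45 ± 1.06 (SD, n = 3, limma adjusted p = 0.0056), and without control mouse 1 the mean was 0.90. Zfp865 read 8.17, 7.87 and 7.98 in WASH and 9.93, 8.37 and 9.25 in ELUTED, a mean of 1.18 ± 0.63 (SD, n = 3, limma adjusted p = 0.0032). Its fractions did not overlap. Zfp248 read 5.82, 6.02 and 5.89 in WASH and 6.51, 7.32 and 7.35 in ELUTED, a mean of 1.15 ± 0.41 (SD, n = 3, limma adjusted p = 0.0035). Both its WASH and its ELUTED signal were above background in 2 of the 3 control mice, so the size of its ratio is uncertain. Other probe sets of Zfp248, almost as bright, gave means of 0.77, which passed, and -0.16, which did not.

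Smaller ratios were in part more even between mice. Zfp469, whose human counterpart is mutated in brittle cornea syndrome, read 6.96, 6.93 and 6.84 in WASH and 7.94, 7.62 and 7.75 in ELUTED, a mean of 0.86 ± 0.15 (SD, n = 3, limma adjusted p = 0.0013). Zfp59 had a mean of 0.80 ± 0.12 and Zfp608 of 0.78 ± 0.32, with ELUTED above background in 2 of 3 control mice for both. The ratio of Zfp618 was 1.01 ± 0.46, that of Zfp961 0.88 ± 0.55, that of Zfp626 0.84 ± 0.64 and that of Zfp703 0.84 ± 0.65, each highest in control mouse 1. Without that mouse the means of Zfp961, Zfp703 and Zfp626 were 0.57, 0.49 and 0.47, and Zfp626 no longer passed (adjusted p = 0.089). It did not pass without control mouse 3 either (adjusted p = 0.052).

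At the other end, Zfp775, Zfp180, Zfp251, Zfp763 and Zfp281 were depleted most from the long-tail fraction. Zfp775 read 7.85, 7.83 and 7.98 in WASH and 5.40, 7.05 and 6.07 in ELUTED, a mean of -1.71 ± 0.86 (SD, n = 3, limma adjusted p = 0.0018), with ELUTED above background in 1 of 3 mice. Zfp180 read 8.61, 8.49 and 8.20 in WASH and 5.72, 7.31 and 7.26 in ELUTED, a mean of -1.67 ± 1.06 (SD, n = 3, limma adjusted p = 0.0043), with ELUTED above background in 2 of 3 mice. Signals below background set no exact ratio. Control mouse 1 had the lowest ELUTED signal of both genes. Without it the means of Zfp180, Zfp251 and Zfp87 were -1.06, -0.90 and -0.69 rather than -1.67, -1.51 and -1.22, and all still passed.

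The spread between control mice differed among the other depleted members. Zfp281, a transcription factor of GC-rich promoters with a role in pluripotent cells, read 7.87, 7.78 and 7.67 in WASH and 6.16, 6.54 and 6.38 in ELUTED, a mean of -1.42 ± 0.26 (SD, n = 3, limma adjusted p = 0.00055), with ELUTED above background in 2 of 3 mice. Zfp763 had a mean of -1.43 ± 0.32, Zfp521 of -1.29 ± 0.46, Zfp759 of -1.26 ± 0.16, Zfp263 of -1.17 ± 0.44 and Zfp330, a nucleolar protein, of -1.10 ± 0.15. ELUTED signals of Zfp521, Zfp759 and Zfp330 were above background on 1 of 3 control arrays. The ELUTED signals of Zfp763, Zfp251 and Zfp263 were above it on all 3.

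**Figure D3:**
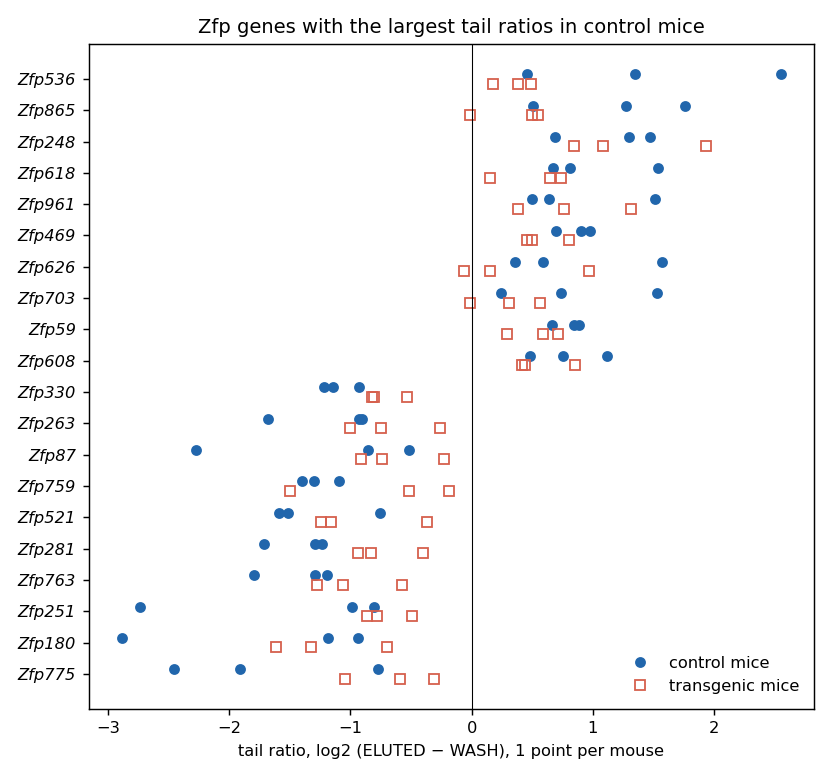
Tail ratio (log2, horizontal axis, 1 point per mouse) of the 10 Zfp genes with the largest positive and the 10 with the largest negative mean among those that passed in control mice. Filled circles are the 3 control mice and open squares the 3 transgenic mice, and the control points of Zfp536, Zfp180 and Zfp251 include 1 far from the others.

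Of 14 listed genes that act in neural development 9 were measured, of which 3 passed above 0 and 3 below in control mice, 33.3% each, beside 20.5% and 39.9% of all genes, with a median of 0.14. Zfp536, Zfp703 and Zfp462, the last a gene of human neurodevelopmental disease, passed above 0, and Zfp462 had a ratio of 0.49 ± 0.20. Zfp462 did not pass without control mouse 3 (limma adjusted p = 0.081) or with only the control mice (limma adjusted p = 0.053). Other probe sets of Zfp462 gave means of -0.10 and 1.00, of which only 1.00 passed. Zfp521, which promotes early neural differentiation, Zfp423, needed for cerebellar midline development, and Zfp292 passed below 0. Zfp423 had tail ratios of -1.35, -0.84 and -0.18 in the 3 control mice and did not pass without control mouse 1 (adjusted p = 0.063). Zfp292 had -0.69, -0.53 and -0.61, with a mean of -0.61 ± 0.08 (SD, n = 3, limma adjusted p = 0.0035), the most even value of the list. Other probe sets of Zfp292 gave means of 0.03, -1.075 and -0.13, of which only -1.075 passed. In transgenic mice 0 passed above and 3 below, or 0.0% and 33.3% beside 6.5% and 20.5% of all genes. The 3 were again Zfp521, Zfp423 and Zfp292. Zfp365, which binds Disc1, had -0.34, 0.08 and 0.06 in the control mice and did not pass.

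Of the members that act on RNA and ribosomes, 10 of 11 were measured, and 0 passed above 0 and 4 below in control mice, with a median of -0.17. That is 4 of 10 below, near the 39.9% of all genes. Zfp622, which acts in assembly of the large ribosomal subunit, had tail ratios of -1.41, -0.58 and -0.92, a mean of -0.97 ± 0.42 (SD, n = 3, limma adjusted p = 0.0023). Zfp638, a nuclear protein that silences unintegrated retroviral DNA, had -0.57 ± 0.19, Zfp277, which binds a ribosomal protein, -0.56 ± 0.08, and Zfp346, which binds double-stranded RNA, -0.45 ± 0.30. Zfp346 lost its call without control mouse 1 (adjusted p = 0.076) or without control mouse 2 (adjusted p = 0.099). Under a second quantile normalization neither Zfp638 at -0.16 (adjusted p = 0.40) nor Zfp346 at -0.11 (adjusted p = 0.55) passed. Zfp598, the ubiquitin ligase of collided ribosomes, had 0.07 ± 0.18, and Zfp207, a spindle protein, 0.34 ± 0.35. Other probe sets of Zfp207 gave 0.15, -0.98 and -0.06, of which only -0.98 passed (limma adjusted p = 0.018). In transgenic mice 0 passed above and 2 below, Zfp638 and Zfp277, or 0.0% and 20.0% beside 6.5% and 20.5% of all genes.

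Of the chromatin and transcription cofactors, 9 of 15 were measured, of which 2 passed above 0 and 3 below in control mice, with a median of -0.16. These are 22.2% and 33.3%, near the 20.5% and 39.9% of all genes. Zfp608 and Zfp592 passed above 0, Zfp592 with 0.85, 0.17 and 0.73 in the 3 mice, and not without control mouse 3 (adjusted p = 0.066). Zfp281, Zfp410 and Zfp131 passed below 0. Zfp410, an activator of the Chd4 gene, read -1.29, -0.58 and -0.81, a mean of -0.90 ± 0.36 (SD, n = 3, limma adjusted p = 0.0018). Zfp687, a partner of Zfp592 in a chromatin complex, had 0.08 ± 0.25. In transgenic mice 1 passed above, Zfp608, and 3 below, Zfp281, Zfp687 and Zfp827. That is 11.1% and 33.3% beside 6.5% and 20.5% of all genes.

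Of the listed genes of retroelement and imprint control, 5 of 11 were measured, and 1 passed above 0 and 0 below in control mice, or 20.0% and 0.0% beside 20.5% and 39.9% of all genes, with a median of -0.01. Zfp961 was the one that passed, in both genotypes. Zfp809, which silences murine leukaemia virus through the primer binding site, had tail ratios of 0.18, -0.04 and 0.48. Zfp445, which maintains imprints, had -1.17, 0.00 and -0.26, so its mean of -0.48 ± 0.61 was set by control mouse 1, and it did not pass (limma adjusted p = 0.074). Other probe sets of Zfp445 gave means of -0.29 and -1.02, of which only -1.02 passed (limma adjusted p = 0.022). Zfp932 had -0.09, -0.04 and 0.09.

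In transgenic mice 8 members passed above 0 and 31 below, or 4.6% and 17.8%, beside 6.5% and 20.5% of all tested genes. The median member was at -0.11 and the median gene at -0.17. The 8 were Zfp248, Zfp961, Zfp469, Zfp608, Zfp59, Zfp655, Zfp697 and Zfp296, and each of them had also passed above 0 in control mice. Zfp248 read 5.83, 5.99 and 5.91 in WASH and 7.76, 7.07 and 6.75 in ELUTED, a mean of 1.29 ± 0.57 (SD, n = 3, limma adjusted p = 0.0075), with WASH above background in 2 of 3 mice. Its other probe sets gave 0.64, which passed, and -0.10, which did not, and the mean over all of them was 0.61. Zfp655 was above background on 1 of 3 transgenic WASH arrays. Zfp961 followed Zfp248 at 0.82 ± 0.47 and Zfp469 at 0.58 ± 0.19. The lowest ratios were those of Zfp180 at -1.21 ± 0.47, Zfp24 at -1.02 ± 0.12 and Zfp763 at -0.97 ± 0.36. Zfp24, which is needed for myelination, read 8.51, 8.04 and 7.95 in WASH and 7.45, 6.93 and 7.07 in ELUTED (limma adjusted p = 0.0035). Next were Zfp521 at -0.92, Zfp275 at -0.89, Zfp423 and Zfp759 at about -0.74, Zfp281 and Zfp330 both at -0.72 and Zfp319 at -0.71. Zfp759 was at -0.35 without transgenic mouse 2 (adjusted p = 0.26).

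These transgenic calls rest on few mice and on the scaling. Without transgenic mouse 1, or without transgenic mouse 2, 0 members and 0.0% of all genes passed, although without control mouse 1, whose values enter the shared estimate of the spread, 16 members passed above 0 and 52 below, beside 12.0% and 33.7% of all genes. Centred arrays gave 21 above 0 and 15 below, beside 13.7% and 10.7% of all genes. Of the members that passed, 58.3% rather than 20.5% were then above 0, and of the genes 56.2% rather than 24.1%.

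Both genotypes ordered the members alike. Of the 174, 32 passed in both, 24 below and 8 above 0, 47 passed in control mice alone, 7 in transgenic mice alone and 88 in neither, and 0 passed in opposite directions. The shares of all genes in these classes were not counted, so the counts do not set the members apart from other genes. The mean tail ratios of control and transgenic mice correlated at 0.838 (Pearson) and 0.832 (Spearman) across the 174 genes, and at 0.863 and 0.881 across all 11974, as a description over genes that share arrays. The ratio was above 0 in all 6 mice for 30 members, 17.2% against 20.0% of all genes, and below 0 in all 6 for 58 members, 33.3% against 41.4%. Passing in control mice alone is not a difference between genotypes, which is tested below. The SD between mice was larger in controls for 132 of 174 members, with a median of 0.26 against 0.16, and for 8544 of 11974 genes, with a median of 0.29 against 0.18.

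**Figure D4:**
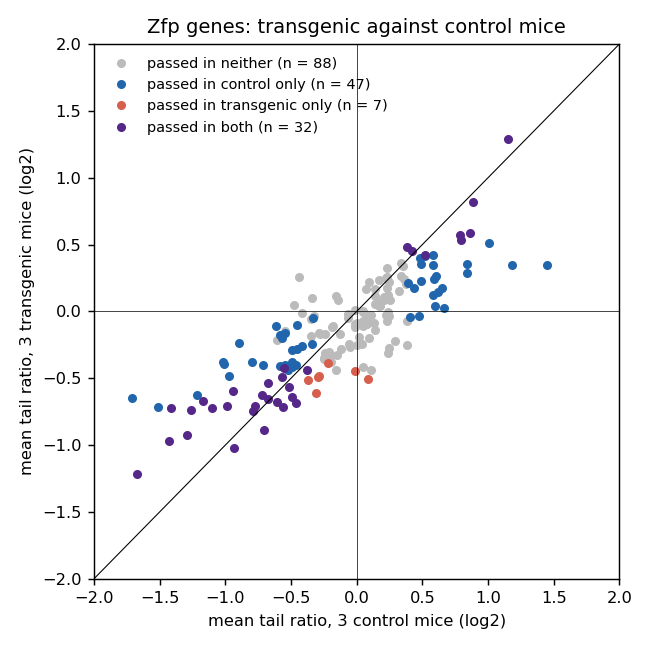
Mean tail ratio (log2) of each of the 174 Zfp genes in the 3 transgenic mice (vertical axis) against the 3 control mice (horizontal axis), coloured by where it passed an adjusted p under 0.05. The points follow a line flatter than the diagonal of equal values, and none of the 32 that passed in both lies in an opposite quadrant.

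No member passed the test of a genotype difference in its tail ratio. With limma, 0 of 174 members and 0.0% of all genes passed, the lowest adjusted p among members was 0.37, and 11 members had an unadjusted p under 0.05, against 1693 of 11974 genes. The median difference, transgenic minus control, was -0.08 for the members and 0.02 for all genes. Zfp281 had the smallest p: its tail ratios were -1.71, -1.24 and -1.29 in the controls, as against -0.83, -0.94 and -0.40 in the transgenic mice, a difference of 0.69 (SE 0.22, limma adjusted p = 0.37). These values did not overlap, but those of its second probe set did, at -1.49, -1.30 and -1.43 against -1.36, -1.49 and -0.52. Zfp410 went from -1.29, -0.58 and -0.81 to -0.22, -0.25 and -0.23, a difference of 0.66 (SE 0.21), without overlap. The second probe set of Zfp410 overlapped, at -1.85, -0.85 and -0.99 against -0.80, -1.05 and -0.41. In the other direction Zfp687 went from 0.30, -0.19 and 0.14 to -0.40, -0.48 and -0.64, a difference of -0.59 (SE 0.19). Next by p were Zfp825 at 0.50, Zfp775 at 1.07, Zfp512 at 0.42 and Zfp330 at 0.38, and Zfp398 at -0.56, Zfp369 at -0.48, Zfp865 at -0.84, Zfp536 at -1.10 and Zfp106 at -0.55.

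The genotypes did not overlap for 10 members higher in transgenic mice, 5.75% beside 11.9% of all genes, and for 12 lower, 6.9% beside 7.36%. Without control mouse 2, 3 members passed, namely Zfp775 at 1.54, Zfp865 at -1.17 and Zfp536 at -1.60, when 10.4% of all genes did.

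No member passed the genotype test in total RNA either. With limma, 0 of 174 members and 0.0% of all genes passed in INPUT, the lowest adjusted p among members was 0.42, and 14 members had an unadjusted p under 0.05, against 1352 genes. Zfp146, a protein made of fingers alone, read 7.22, 7.46 and 7.36 in the control INPUT arrays, as against 8.17, 7.83 and 7.99 in the transgenic ones, a difference of 0.65 (SE 0.12, limma adjusted p = 0.42). All 3 transgenic arrays were above all 3 control arrays, of which 2 were above background. Zfp46 differed by 0.50, Zfp90 by 0.43, Zfp346 by 0.37 and Zfp787 by 0.31, and Zfp692 by -0.33, Zfp13 by -0.32 and Zfp182 by -0.29. Zfp90 was above background on 1 of 3 control arrays, Zfp787 on 1 of 3 arrays of each genotype and Zfp182 on 1 of 3 transgenic arrays. Zfp330, Zfp446, Zfp493 and Zfp59, also among the smallest p, were above it on 0 of the 6 INPUT arrays, so no difference is given. The genotypes did not overlap for 15 members higher in transgenic mice, 8.62% beside 13.2% of all genes, and for 7 lower, 4.02% beside 6.63%.

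The members with the highest mean over the 18 arrays were Zfp365, Zfp445 and Zfp706. Zfp365 read 11.56, 11.55 and 11.51 in the control INPUT arrays, as against 11.00, 11.51 and 11.37 in the transgenic ones, with transgenic mouse 1 lowest. Zfp445 read 10.76, 10.79 and 10.82 in control INPUT, as against 10.82, 10.86 and 10.64 in the transgenic mice. Zfp706 read 10.53, 10.64 and 10.59, then 10.65, 10.70 and 10.65. The median member signal per INPUT array lay between 7.39 and 7.50 in all 6 mice.

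In the short-tail fraction 0 members and 0.0% of all genes passed between genotypes (limma, lowest adjusted p among members 0.16), and 23 members had an unadjusted p under 0.05, against 1997 genes. Zfp687 read 7.16, 7.27 and 7.23 in the control WASH arrays, as against 7.97, 7.62 and 7.80 in the transgenic ones, a difference of 0.58 (SE 0.11, limma adjusted p = 0.16). Its values did not overlap. Zfp90 differed by 0.57, Zfp865 by 0.49, Zfp423 by 0.46, Zfp866 by 0.35 and Zfp467 by 0.28. In the other direction Zfp296, Zfp773, Zfp512, Zfp445, Zfp13 and Zfp182 lay between -0.27 and -0.21. The genotypes did not overlap for 24 members higher in transgenic WASH, 13.8% beside 16.1% of all genes, and for 14 lower, 8.05% beside 9.2%.

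In the long-tail fraction 0 members and 0.0% of all genes passed as well (limma, lowest adjusted p among members 0.28), and 18 members had an unadjusted p under 0.05, against 2163 genes. Zfp281 read 6.16, 6.54 and 6.38 in the control ELUTED arrays, as against 7.30, 6.88 and 7.44 in the transgenic ones, a difference of 0.85 (SE 0.21, limma adjusted p = 0.28). The control signals of Zfp281 were above background on 2 of 3 arrays. Zfp775 differed by 1.33, Zfp617 by 0.76, Zfp410 by 0.72, Zfp521 by 0.60 and Zfp330 by 0.55, and Zfp950 by -0.79, Zfp398 by -0.55, Zfp106 by -0.52, Zfp689 by -0.48, Zfp59 by -0.46 and Zfp446 by -0.41. Of these Zfp410, Zfp106 and Zfp398 were above background on all 6 ELUTED arrays. The genotypes did not overlap for 18 members higher, 10.3% beside 18.2% of all genes, and for 18 lower, 10.3% beside 7.64%. With all 18 arrays in 1 model and the mouse as a random block, 7 members passed above 0 and 8 below, among them Zfp281 at 0.85 and Zfp536 at -0.95, when 19.2% of all genes passed.

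Many Zfp genes lie in clusters, and 78 of the 174 had another Zfp gene as a direct neighbour in the RefSeq gene table. In control mice 13 of these 78 passed above 0 and 24 below, or 16.7% and 30.8% beside 20.5% and 39.9% of all genes, and their median tail ratio of -0.18 was that of all genes. Of the other 96 members 17 passed above and 25 below, or 17.7% and 26.0%, with a median of 0.02. The members formed 33 neighbouring pairs, of which 19 had the same sign in control mice. Both genes passed in opposite directions in 3 pairs, Zfp112 at 0.52 with Zfp180 at -1.67, Zfp13 at 0.49 with Zfp213 at -0.72, and Zfp961 at 0.88 with Zfp617 at -1.01. Both passed in the same direction in 2 pairs, Zfp59 with Zfp626 above 0 and Zfp239 with Zfp637 below. The tail ratios of neighbours therefore differed in sign in 14 of the 33 pairs.

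Several probe sets of 1 gene did not always give 1 answer. Of the 57 members with more than 1 tested probe set, 30 had the same sign in all of them in control mice and 27 did not. Zfp865 passed above 0 with each of 4 probe sets, at 1.18, 0.74, 0.66 and 0.76, and Zfp24 below 0 with each of 4, at -0.94, -0.97, -0.78 and -0.33. The probe sets of 3 genes passed in opposite directions. Zfp638 gave -0.57, -1.29 and 0.80, Zfp84 gave -0.77, 0.37 and -1.48, and Zfp574 gave 0.40 and -0.50, with the first value from the probe set that represents the gene. The mean over both probe sets of Zfp574 was -0.05, so its call above 0 rests on the brighter one. Zfp148, which binds GC-rich promoters, did not pass with its brightest probe set at 0.23 ± 0.31, whereas the others gave -0.25, -0.59, -0.85 and -0.89, the last 3 of which passed.

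**Figure D5:**
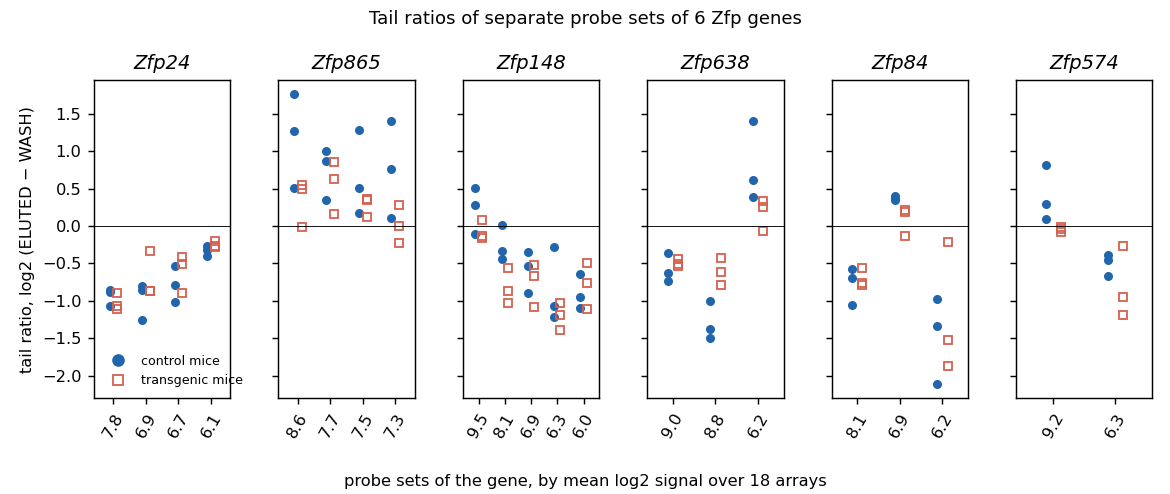
Tail ratio (log2, vertical axis) of the separate probe sets of 6 Zfp genes chosen after their values were seen. Probe sets run along the horizontal axis by falling mean log2 signal, with filled circles for the 3 control mice and open squares for the 3 transgenic mice. All probe sets of Zfp24 lie below 0, those of Zfp638, Zfp84 and Zfp574 lie on both sides, and those of Zfp148 fall from 0.23 to -0.89 in control means.

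Where probe sets of a gene lie along its transcripts was not analysed here. In the text above the value of a gene is that of its brightest probe set, unless another is named. The mean over all probe sets of a gene gave 32 members above 0 and 52 below in control mice, beside 21.3% and 40.5% of all genes. That mean was 0.59 for Zfp248 and 0.51 for Zfp618, compared with 1.15 and 1.01 for their brightest probe sets. For 21 members the name of the probe set marks probes that match several transcripts (Zfp59, Zfp84, Zfp263 and Zfp622 among those named above). These can be transcripts of the same gene or of related genes, and the kinds of name were not separated. Related genes may therefore contribute to the values of some of them.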

How the data were processed

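RNA of 6 mice was measured on 18 single-colour Affymetrix arrays, 3 per mouse. The authors deposited log2 values per probe set. Per the submitters' processing notes they used RMA, which corrects background, makes array distributions alike and summarises probes. A shift common to most transcripts of a preparation is lost in that step. The sources used here do not give its version. Per the labels' protocols, amplification started from 5 ng and ran for 21 cycles before 8 µg of cDNA was labelled, which can compress or stretch differences. The series text names a PrimeView array, whereas probe names and annotation are those of another design, which was used.

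Of 45141 probe sets, 104 controls were left out. Of the other 45037, 28898 had 1 gene, 551 several and 15588 none in the annotation. Probe sets with a mean above the 40th percentile (log2 5.95) were tested, 27022 in all, 19143 of them with 1 gene. All 174 member symbols matched RefSeq (GRCm38.p6).

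Tail ratios of both genotypes were fitted in 1 limma model (lmFit, eBayes, limma 3.58.1, R 4.3.3), and each preparation was compared between genotypes on its 6 arrays. Tests were two-sided with Benjamini-Hochberg adjustment over all tested probe sets and a threshold of 0.05. WASH and ELUTED were paired within a mouse by the number in the titles. Replicates are labelled as separate mice. The p-values rest on a spread pooled over both genotypes, 3 mice each, and moderated over probe sets. The SD printed beside a tail ratio is that of 1 genotype alone, and it was larger in controls for most members. Fits to the mice of 1 genotype alone are among the alternatives given below. Arrays carry no read depth, so the number of mice limits the precision. On simulated data the control tail model recovered 2, 26, 43 and 45 of 50 probe sets changed by 0.5, 1, 1.5 and 2. The total RNA model recovered 9, 31, 46 and 48. There were 4 and 11 false calls among the unchanged probe sets of 27022. The simulated noise was normal, independent and equal in both genotypes, and few probe sets were changed. In the data the control spread was larger, 1 array stood apart and 63.0% of probe sets passed in control tail ratios, so these figures do not carry over.

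The members and lists were chosen with earlier results of these data known. The text names, per comparison, up to 10 members with the largest value in each direction among those that passed. Where fewer than 10 passed in a direction, it names those and then members by smallest p, up to 6. It also names the brightest and the threshold members and the role lists. The alternatives tried were other filters, scalings, probe set rules, fits and left-out mice.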

Additional observations from a re-analysis of the deposited data

How the results depend on the processing

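Of the members that passed in control or transgenic mice, 2 changed sign under an alternative, both in control mice: Zfp523 with a second quantile normalization (0.03) and Zfp574 with the mean of all probe sets (-0.05). In control mice 15 of the 30 members above 0 and 27 of the 49 below passed the same way in all 13 alternatives that keep the members, among them Zfp248, Zfp469, Zfp59, Zfp865, Zfp281, Zfp763 and Zfp24. The share of all genes that did so was not counted. In transgenic mice 0 of 8 and 0 of 31 did. That result is no trait of the members, because without transgenic mouse 1 or 2 0.0% of all genes passed. In control mice the count above 0 was 55 with centred arrays, 46 with a second quantile normalization, 14 (of 110 members) with a filter at the 60th percentile, 18 with only the mice of that genotype and 17 to 34 without 1 mouse in turn, lowest without control mouse 3. The count below 0 was 31 with centred arrays, 30 with the 60th percentile filter and 18 (of 102 members) above background on every array, a filter that itself removes low ELUTED signals. Of all genes 30.9% and 31.6% passed above and below 0 with centred arrays, and 24.7% and 29.9% with the second quantile normalization. With the 60th percentile filter 14.7% and 47.3% did, and without 1 mouse in turn 11.6% to 21.3% passed above. With only the control mice 45.7% of probe sets passed in either direction. In transgenic mice the count above 0 was 21 with centred arrays, 2 with the 60th percentile filter, 18 with only that genotype, 24 with tail ratios rescaled to the same SD, 5 (of 150 members) above background and 0 to 16 without 1 mouse. The count below 0 was 15, 13, 54 and 67 under the first 4 of these, 19 with a second quantile normalization and 0 to 52 without 1 mouse. Of all genes 13.7% and 10.7% passed above and below 0 with centred arrays, and 3.88% and 18.6% with the 60th percentile filter. With rescaled ratios 16.6% and 41.6% did, and 5.55% and 8.18% with the second quantile normalization. Without 1 mouse 0.0% to 12.0% passed above and 0.0% to 33.7% below. With only the transgenic mice 53.7% of probe sets passed in either direction. For the genotype difference 0 to 1 members passed above 0 and 0 to 2 below without 1 mouse. In ELUTED 7 passed above and 8 below with all 18 arrays and the mouse as a random block, and 0 to 2 above and 0 to 1 below without 1 mouse. Without control mouse 2, 10.4% of all genes passed for the genotype difference and 10.2% in ELUTED. With the random block 19.2% passed in ELUTED. The cause of these moves was not tested. Without the replicate block of the mouse, the WASH and ELUTED arrays gave 27 above 0 and 49 below in control mice. Of all tested probe sets 60.3% passed then. Replicate numbers did not pair mice across genotypes (correlations of same-numbered tail ratios 0.357, -0.313 and 0.268), and the block on them left 0 members called in the 4 genotype comparisons.

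The sign also changed for members that had not passed. In control mice these were, with centred arrays, Zfp365 at 0.12, Zfp932 at 0.18, Zfp30 at 0.14 and Zfp451 at 0.033. With a second quantile normalization they were Zfp365 at 0.13, Zfp706 at 0.0042, Zfp932 at 0.17, Zfp30 at 0.33, Zfp593 at -0.10 and Zfp451 at 0.16, and with rescaled ratios Zfp593 at -0.048. With the mean of all probe sets they were Zfp148 at -0.47, Zfp207 at -0.14 and Zfp644 at -0.41. Without 1 mouse in turn the ranges that held both signs were -0.14 to 0.073 for Zfp365, -0.43 to 0.028 for Zfp267, -0.063 to 0.028 for Zfp932, -0.078 to 0.36 for Zfp335, -0.0035 to 0.17 for Zfp598, -0.17 to 0.11 for Zfp593, -0.024 to 0.22 for Zfp687, -0.057 to 0.55 for Zfp644, -0.42 to 0.30 for Zfp451, -0.35 to 0.12 for Zfp30 and -0.0062 to 0.31 for Zfp106. In transgenic mice they were, with centred arrays, Zfp365 at 0.16, Zfp706 at 0.12, Zfp335 at 0.039, Zfp148 at 0.10, Zfp598 at 0.15, Zfp593 at 0.088 and Zfp346 at 0.079. With a second quantile normalization they were Zfp365 at 0.10, Zfp706 at 0.13, Zfp30 at 0.0047, Zfp148 at 0.20, Zfp598 at 0.12, Zfp346 at 0.17 and Zfp410 at 0.042, and with the mean of all probe sets Zfp445 at -0.14 and Zfp451 at -0.12. Without 1 mouse in turn the range was -0.068 to 0.024 for Zfp365 and -0.0047 to 0.081 for Zfp830. The genotype difference of Zfp330 was -0.013 with rescaled ratios. The planned grouping of members by protein features was not run, because the protein sequences it needs were not used here.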

Other observations

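Genes listed for the corepressor machinery of KRAB zinc finger proteins were measured on the same arrays, 26 of 30, none of them Zfp members. The list also holds related chromatin genes, such as Trim33 and Uhrf1, whose proteins need not be recruited by a KRAB domain. In control mice 4 of them passed above 0 in the tail ratio and 13 below (limma, adjusted p under 0.05), with a median of -0.36, beside 20.5% above and 39.9% below among all genes. Dnmt3a, a DNA methyltransferase, had tail ratios of 1.76, 0.45 and 1.06, with a mean of 1.09 ± 0.65 (SD, n = 3), and Chd4, the remodelling ATPase of the NuRD complex, Uhrf1 and Cbx5 had means of 0.72, 0.50 and 0.41. Without control mouse 1 the mean was 0.45 for Chd4, which still passed, 0.24 for Uhrf1 (adjusted p = 0.18) and 0.38 for Cbx5 (adjusted p = 0.084), and Cbx5 did not pass without control mouse 3 either (adjusted p = 0.17). Hdac2, a histone deacetylase, had -5.32, -0.62 and -3.09, with a mean of -3.01 ± 2.35 (SD, n = 3), and its ELUTED signal was above background in 2 of 3 control mice. Without control mouse 1 its mean was -1.86. Among the heterochromatin proteins Cbx3 was at -1.44 and Cbx1 at -1.19, on the opposite side of 0 from Cbx5, and without control mouse 1 Cbx3 was at -0.77. Trim33, a relative of Trim28, had -0.76 ± 0.03 (SD, n = 3). Trim28, the corepressor that binds the KRAB domain, had 0.03 ± 0.61, and the methyltransferase Setdb1 had 0.04 ± 0.26, and neither passed. In transgenic mice 0 passed above and 7 below, or 0.0% and 26.9% beside 6.5% and 20.5% of all genes. In INPUT 24 of the 26 had a positive difference, transgenic minus control, with a median of 0.09, and 0 passed. Of all genes 6843 of 11974 had a positive difference, with a median of 0.03.

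Other zinc finger families lay on both sides of 0 in control mice, where 20.5% of all genes passed above and 39.9% below. Of 30 Zbtb genes, which carry a BTB domain, 8 passed above 0 and 8 below, 26.7% each, with a median of -0.03. Of 13 Klf genes 4 passed above and 3 below, or 30.8% and 23.1%, with a median of 0.06. Of 12 Zscan and Zkscan genes, which carry a SCAN domain, 2 passed above, or 16.7%, and 6 below, with a median of -0.54. In that group Zkscan8 had a mean of -1.41 ± 0.88 (SD, n = 3) and Zscan20 of 0.52 ± 0.35 (SD, n = 3). Without control mouse 1 they were at -0.94 and 0.33, and Zscan20 did not pass then (adjusted p = 0.083) or without control mouse 3 (adjusted p = 0.052).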
